A study of Mus musculus with 6 samples.

Results

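Fatty acid oxidation and ketone body genes were compared between E12.5 mouse embryos that lack Sp3, a zinc finger factor that binds GC-rich promoter elements, and wildtype embryos. The list held 35 named genes of mitochondrial and peroxisomal fatty acid oxidation, carnitine transport, ketone bodies and their regulators, and each gene was read at its probe set of highest mean level. Of the 35 genes, 33 were measured, among 18193 measured genes in all. Acsl1 was not analysed here, and the only probe set of Cpt1b is annotated to several genes, so no value is given for it. The groups were 3 samples labelled as Sp3 knockout hearts at E12.5 and 3 labelled as wildtype hearts at E12.5, lettered a to c in each. Per the labels, each sample was the total RNA of a single heart, hybridised to 1 oligonucleotide array after biotin labelling. The allele, strain, sex and litter are not given in the sources used here. Levels are log2 intensities, and a difference is the knockout mean minus the wildtype mean on that scale.

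Beta-oxidation shortens a fatty acid by repeated rounds of dehydrogenation, hydration, a further dehydrogenation and thiolysis. Long chains are first joined to coenzyme A and carried into mitochondria on carnitine. Very long and branched chains, and dicarboxylic acids, start in peroxisomes. Electrons from the first step pass through electron transfer flavoprotein to the respiratory chain, and in liver the acetyl-CoA that is formed feeds ketone body synthesis. PPAR alpha, encoded by Ppara, and its coactivator PGC-1 alpha, encoded by Ppargc1a, drive many of these genes in postnatal liver and heart.

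The tissue label bears on where these enzymes were measured. The 14 measured liver markers all had a mean level of 8.47 or more, where Alb, serum albumin, averaged 13.16 ± 0.12 in the knockout arrays and 13.34 ± 0.07 in the wildtype arrays (SD, n = 3 each). The 18 heart muscle markers covered a wide span. Actc1, cardiac actin, was the brightest, averaging 8.69 ± 0.40 in the knockout arrays and 7.61 ± 1.21 in the wildtype arrays. The next brightest were Tnni1, Tnnc1 and Myl7, which encode troponins and an atrial myosin light chain. They averaged 7.62, 7.17 and 7.54 in the knockout arrays and 7.16, 7.32 and 6.85 in the wildtype arrays. All other heart muscle markers were dimmer, the highest being Ttn, at 6.03 in the knockout arrays and 4.79 in the wildtype arrays. The dimmest was Myh6, the atrial and adult ventricular myosin of mouse heart, which averaged 2.92 ± 0.48 in the knockout arrays and 0.91 ± 0.85 in the wildtype arrays. The enzymes are therefore described for the samples as labelled, and no cell type is assigned to them. In whole-tissue RNA, fewer cells of a type and less RNA per cell cannot be told apart. Sp3 itself was read at 1 probe set, the first in the order of the data and not chosen by level, and no other was compared. It was at 8.39, 8.34 and 8.61 in knockout a to c, against 9.87, 9.77 and 9.54 in wildtype a to c, with a limma adjusted p of 0.00254.

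Sp3 acts through GC boxes, so the promoters of 5 oxidation genes are shown: the 3 genes of smallest p, Acadm, which lacks an exact GC box, and Hadha, whose difference was near 0. Each is the 250 bases before the annotated start, from RefSeq on GRCm38.p6, written 5′ to 3′ on the strand of the gene. Capitals mark the letters GGGCGG or their complement CCGCCC, called here a GC box, and the nuclear receptor core site AGGTCA or its complement TGACCT. Ehhadh lies on the minus strand, with its window at chr16:21787835-21788084. Echs1 lies on the minus strand at chr7:140116422-140116671, Hadh on the minus strand at chr3:131272102-131272351, Acadm on the minus strand at chr3:153944644-153944893, and Hadha on the minus strand at chr5:30154981-30155230.
Ehhadh: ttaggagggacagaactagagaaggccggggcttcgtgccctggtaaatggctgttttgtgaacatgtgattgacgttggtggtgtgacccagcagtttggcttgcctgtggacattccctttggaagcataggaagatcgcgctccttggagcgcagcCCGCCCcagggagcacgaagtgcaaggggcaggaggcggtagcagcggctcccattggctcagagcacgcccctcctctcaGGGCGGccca
Echs1: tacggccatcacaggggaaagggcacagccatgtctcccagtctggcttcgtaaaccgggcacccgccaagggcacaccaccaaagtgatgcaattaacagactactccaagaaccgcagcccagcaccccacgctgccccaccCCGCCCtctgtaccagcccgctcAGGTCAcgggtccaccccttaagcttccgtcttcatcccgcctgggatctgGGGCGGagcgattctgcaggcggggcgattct
Hadh: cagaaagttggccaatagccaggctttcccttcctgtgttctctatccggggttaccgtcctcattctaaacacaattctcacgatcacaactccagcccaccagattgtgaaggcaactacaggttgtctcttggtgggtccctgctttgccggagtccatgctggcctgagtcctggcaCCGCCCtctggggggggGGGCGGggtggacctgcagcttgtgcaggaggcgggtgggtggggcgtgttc
Acadm: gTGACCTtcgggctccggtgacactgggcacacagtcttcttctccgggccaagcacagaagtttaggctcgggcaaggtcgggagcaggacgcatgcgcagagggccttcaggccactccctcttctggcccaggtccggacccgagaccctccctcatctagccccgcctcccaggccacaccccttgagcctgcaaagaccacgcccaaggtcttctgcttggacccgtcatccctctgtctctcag
Hadha: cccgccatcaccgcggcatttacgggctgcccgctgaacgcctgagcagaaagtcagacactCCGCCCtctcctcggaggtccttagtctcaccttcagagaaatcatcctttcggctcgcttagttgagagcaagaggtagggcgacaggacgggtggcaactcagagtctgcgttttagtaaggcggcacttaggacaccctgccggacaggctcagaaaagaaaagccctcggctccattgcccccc

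GC boxes were about as frequent upstream of these genes as upstream of bright genes at large. Of the 29 measured members with a promoter in the table, 19 held at least 1 exact GC box on either strand, 65.5%. The share was 53.4% of 14452 measured genes, and 67.5% of the 3352 measured genes with a mean log2 level of 8 or more. It was 8 of 13 among members whose knockout arrays all lay below their wildtype arrays, and 11 of 16 among the other members. Ehhadh, Echs1 and Hadh held 2 each, the nearest ending 4, 26 and 46 bases before the start, and Hadha held 1. Hadha and Hadhb, the subunits of the trifunctional protein, are divergent genes, and their windows share 228 bases. The core site was in 4 of 29 members, Acadm, Echs1, Acadvl and Cpt1a, 13.8% against 14.6% of measured genes. The DR1 element, a direct repeat of that core with 1 base between, was in 0 of 29, and in 0.0484% of measured genes. These matches describe letters in a window and say nothing of binding.

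Most of the oxidation genes were lower in knockout, by small amounts. Of the 33 measured members, 28 had a difference below 0, against 52.5% of all genes, and the median difference was -0.24, against -0.02 over all genes. In 15 members the 3 knockout arrays all lay below the 3 wildtype arrays, which is true of 9.04% of all genes. In 0 members did all knockout arrays lie above all wildtype arrays, against 6.02% of all genes. At an unadjusted p under 0.05 in limma with an intensity trend, 14 members were lower, against 5.51% of all genes, and 0 were higher, against 3.2%. After Benjamini-Hochberg adjustment over 45037 probe sets, limma called 0 members, where 0.0311% of all probe sets were called. Without the trend, limma called 0 members, and 8 were lower at an unadjusted p under 0.05, against 3.11% of all genes in that fit. No gene below is therefore described as changed, and the values stand as measured.

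The summed intensity of the 33 genes was 15445, 14950 and 15371 in knockout a to c, against 17880, 18353 and 17812 in wildtype a to c. The knockout arrays all lay below the wildtype arrays, and the arrays of each group lay closer to each other than to those of the other group. The same held for the mean deviation of the genes from their 6-array means, at -0.14, -0.15 and -0.10 in knockout a to c, against 0.14, 0.10 and 0.14 in wildtype a to c. Among bright genes a lower level in knockout was itself common. Of the 4049 genes with a mean level of 8 or more, 67.0% had a difference below 0, with a median of -0.07. Of the 20 members that bright, 18 had one, with a median of -0.23. The groups did not overlap in 11 of them, against 15.8% of bright genes, and 9 were lower at an unadjusted p under 0.05, against 10.5%. Of the 13 dimmer members 10 were below 0, with a median of -0.24. Here 4 did not overlap, against 7.11% of dimmer genes, and 5 were lower at that p, against 4.07%. After quantile normalization the share of bright genes below 0 was 52.2% and their median -0.01, with 5.53% lower at that p. Over all 33 members, bright and dim, the median was then -0.24, with 26 below 0. Of these 33, 13 were lower at that p, against 4.83% of all genes. The bright Echs1, Hadh and Acadm moved toward 0, from -0.60, -0.38 and -0.40 to -0.54, -0.32 and -0.34. The dim Ehhadh moved the other way, from -1.45 to -1.5. The bright members alone were not summarised in that setting.

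Markers of other cell types are given beside these values, and 0 of them passed after adjustment. Of 14 liver markers 13 were below 0, with a median of -0.14, and their summed intensity ran from 46779 to 48990 in knockout and from 47014 to 54843 in wildtype, so the groups overlapped. That median was -0.05 without wildtype a. Of 12 erythroid markers 10 were below 0, with a median of -0.26, which was -0.06 without knockout c. Their sums were 44668 to 58032 in knockout and 52627 to 58998 in wildtype. Of 12 macrophage markers 9 were below 0, with a median of -0.51, and sums of 1769 to 2274 in knockout and 2693 to 2784 in wildtype. Of 18 heart muscle markers 3 were below 0, with a median of 0.79, which was 0.64 to 0.92 with an array left out. Many of these markers were dim, where the spread between arrays is wide. Their mean deviation was 0.50, 0.42 and 0.21 in knockout a to c, against 0.01, -0.95 and -0.19 in wildtype a to c. Wildtype b thus lay far below the other arrays. The sums of heart muscle markers were 1227 to 1420 in knockout and 575 to 1329 in wildtype, so the groups overlapped. No marker was listed at 0. Lower in knockout without overlap were 2 liver, 0 erythroid, 6 macrophage and 0 heart muscle markers, against 9.04% of all genes and 15.8% of bright genes. Higher without overlap were 0 liver, 0 erythroid, 1 macrophage and 6 heart muscle markers, against 6.02% of all genes. The macrophage sums separated the groups, as those of the oxidation genes did, and the part of any of these cell types in the oxidation differences was not tested.

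**Figure D1:**
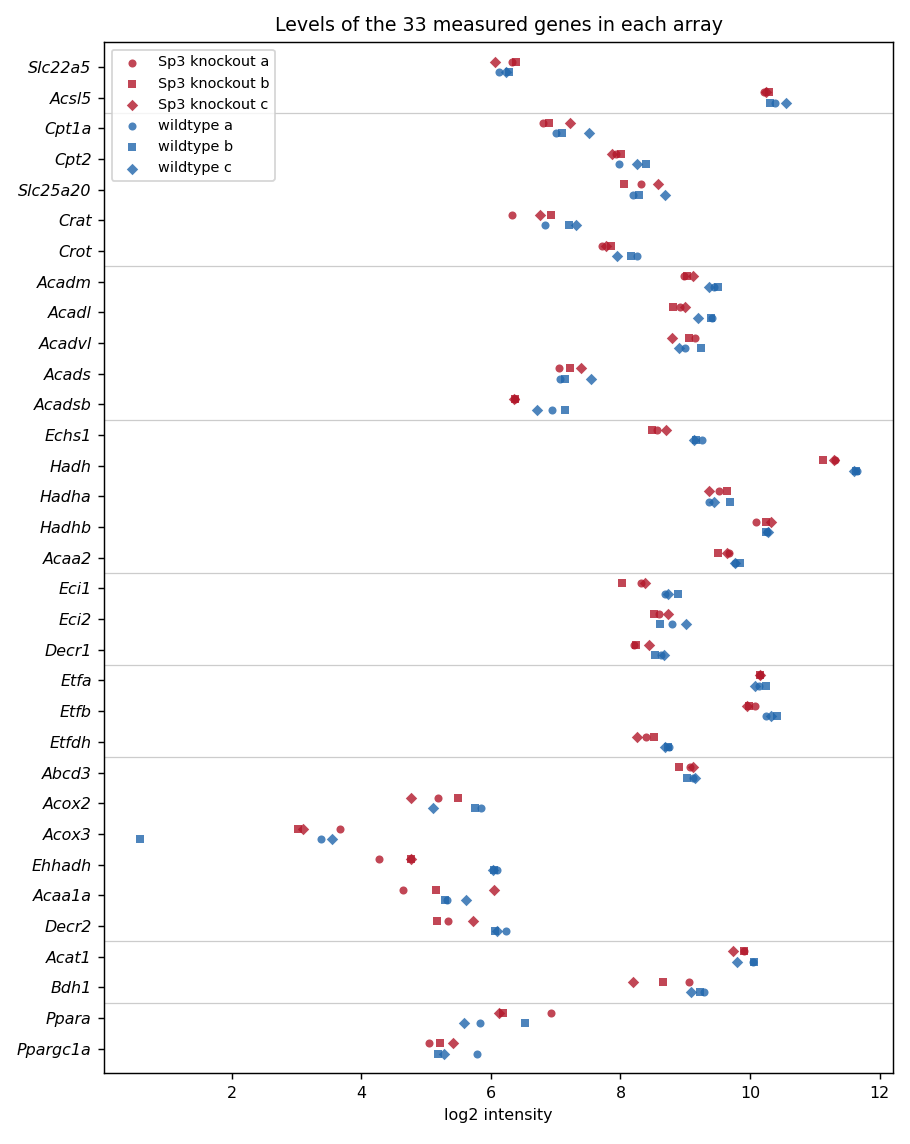
Log2 intensity (horizontal axis) of the 33 measured genes, grouped by role, in 3 Sp3 knockout arrays (red, upper points of each row) and 3 wildtype arrays (blue, lower points). Each point is 1 array, and in 15 genes, such as Echs1, Hadh and Ehhadh, the red points all lie to the left of the blue points.

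The genes of entry into the pathway had differences near 0 or small. Slc22a5, the plasma membrane carnitine transporter, had a difference of 0.04, with a 95% interval of -0.39 to 0.47. Acsl5, a long-chain acyl-CoA synthetase, was at 10.21, 10.29 and 10.25 in knockout a to c, against 10.39, 10.31 and 10.56 in wildtype a to c. Its groups did not overlap, but by a margin of hundredths between knockout b and wildtype b, and its difference was -0.17 ± 0.09 (SE), with a limma adjusted p of 0.729. It was -0.10 without wildtype c. Slc25a20, the carnitine-acylcarnitine carrier of the inner membrane, differed by -0.07, with an interval of -0.43 to 0.29.

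The carnitine acyltransferases were all below 0. Cpt1a, the rate-controlling transferase of the outer membrane, was at 6.80, 6.89 and 7.22 in knockout a to c, against 7.01, 7.10 and 7.52 in wildtype a to c. These groups overlapped, and its difference of -0.24 ± 0.19 was -0.09 without wildtype c and -0.37 without knockout c. Its other probe sets differed by 0.09 and 0.05. Cpt2, the inner membrane transferase, differed by -0.27, with an interval of -0.57 to 0.04. Crot, the peroxisomal carnitine octanoyltransferase, was at 7.71, 7.85 and 7.77 in knockout a to c, against 8.26, 8.17 and 7.94 in wildtype a to c, with no overlap, a difference of -0.35 ± 0.14 and a limma adjusted p of 0.661. Crat, carnitine acetyltransferase, was at 6.32, 6.93 and 6.76 in knockout a to c, against 6.83, 7.21 and 7.32 in wildtype a to c. Knockout b lay above wildtype a, and the difference of -0.45 ± 0.21 was -0.27 without knockout a. All 3 probe sets of Crat were below 0, the dimmer ones at -1.57 and -2.06, where the spread between arrays is several times that of bright probe sets.

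Acyl-CoA dehydrogenases, which make the first double bond, divided into members that lay apart between the groups and members near 0. Acadm, the medium-chain enzyme, was at 8.98, 9.02 and 9.12 in knockout a to c, against 9.44, 9.50 and 9.37 in wildtype a to c. The groups were separate, with a difference of -0.40 ± 0.10, which is 24.3% lower on the linear scale, and a limma adjusted p of 0.437. Acadl, the long-chain enzyme, was at 8.92, 8.81 and 9.00 in knockout a to c, against 9.41, 9.40 and 9.20 in wildtype a to c, with a difference of -0.43 ± 0.11 and an adjusted p of 0.481. Its other probe set is dim, at 3.15 ± 0.26 in knockout and 0.80 ± 1.92 in wildtype, and ran the other way. Acadsb, which handles short branched chains from isoleucine, was at 6.37, 6.38 and 6.35 in knockout a to c, against 6.95, 7.15 and 6.72 in wildtype a to c, a difference of -0.58 ± 0.18 with an adjusted p of 0.590. Its only probe set is of the x_at type, whose probes can also match other transcripts. Acadvl, the very-long-chain enzyme of the inner membrane, differed by -0.05, with an interval of -0.34 to 0.24. Acads, the short-chain enzyme, differed by -0.03, with an interval of -0.41 to 0.35. At both genes the groups overlapped.

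In the later steps of the mitochondrial cycle, the matrix enzymes Echs1 and Hadh had the smallest limma adjusted p of the mitochondrial members. Echs1, the short-chain enoyl-CoA hydratase, was at 8.56, 8.49 and 8.71 in knockout a to c, against 9.26, 9.17 and 9.13 in wildtype a to c. All knockout arrays lay below all wildtype arrays, with a difference of -0.60 ± 0.11, an interval of -0.85 to -0.36 and an adjusted p of 0.149. Hadh, the 3-hydroxyacyl-CoA dehydrogenase of shorter chains, was at 11.31, 11.12 and 11.29 in knockout a to c, against 11.65, 11.63 and 11.60 in wildtype a to c. Its difference was -0.38 ± 0.08, 23.4% lower on the linear scale, with an adjusted p of 0.184. That probe set is of the x_at type. A second one, not of that type, was also lower without overlap, averaging 9.69 ± 0.08 in knockout arrays and 9.96 ± 0.05 in wildtype arrays, while the third, a dimmer x_at set, differed by 0.18.

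Hadha and Hadhb carry the same steps for long chains at the inner membrane. Hadha was at 9.52, 9.65 and 9.36 in knockout a to c, against 9.37, 9.69 and 9.44 in wildtype a to c, a difference of 0.01 with an interval of -0.25 to 0.27. Hadhb, at an x_at probe set, was at 10.09, 10.24 and 10.33 in knockout a to c, against 10.26, 10.24 and 10.27 in wildtype a to c, a difference of -0.04 with an interval of -0.24 to 0.16. At both genes the groups overlapped. A second probe set of Hadhb was at 9.89, 9.91 and 9.80 in knockout a to c, against 10.10, 10.08 and 10.12 in wildtype a to c, without overlap, a difference of -0.23 ± 0.09, so the probe sets of this gene disagree. Acaa2, the thiolase that ends the cycle, was at 9.67, 9.50 and 9.64 in knockout a to c, against 9.76, 9.85 and 9.76 in wildtype a to c, with no overlap, a difference of -0.18 ± 0.10 and an adjusted p of 0.729. Its 3 probe sets were all below 0.

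Auxiliary enzymes, which prepare unsaturated chains, were below 0. Eci1, a mitochondrial enoyl-CoA isomerase, was at 8.32, 8.03 and 8.38 in knockout a to c, against 8.68, 8.89 and 8.73 in wildtype a to c. The groups were separate, with a difference of -0.52 ± 0.13, 30.4% lower on the linear scale, and a limma adjusted p of 0.429. Decr1, the mitochondrial dienoyl-CoA reductase, was at 8.21, 8.24 and 8.44 in knockout a to c, against 8.63, 8.54 and 8.67 in wildtype a to c, a difference of -0.32 ± 0.12 with an adjusted p of 0.658, and its second probe set was at -0.67. Eci2, an isomerase of mitochondria and peroxisomes, differed by -0.19, and its groups overlapped.

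**Figure D2:**
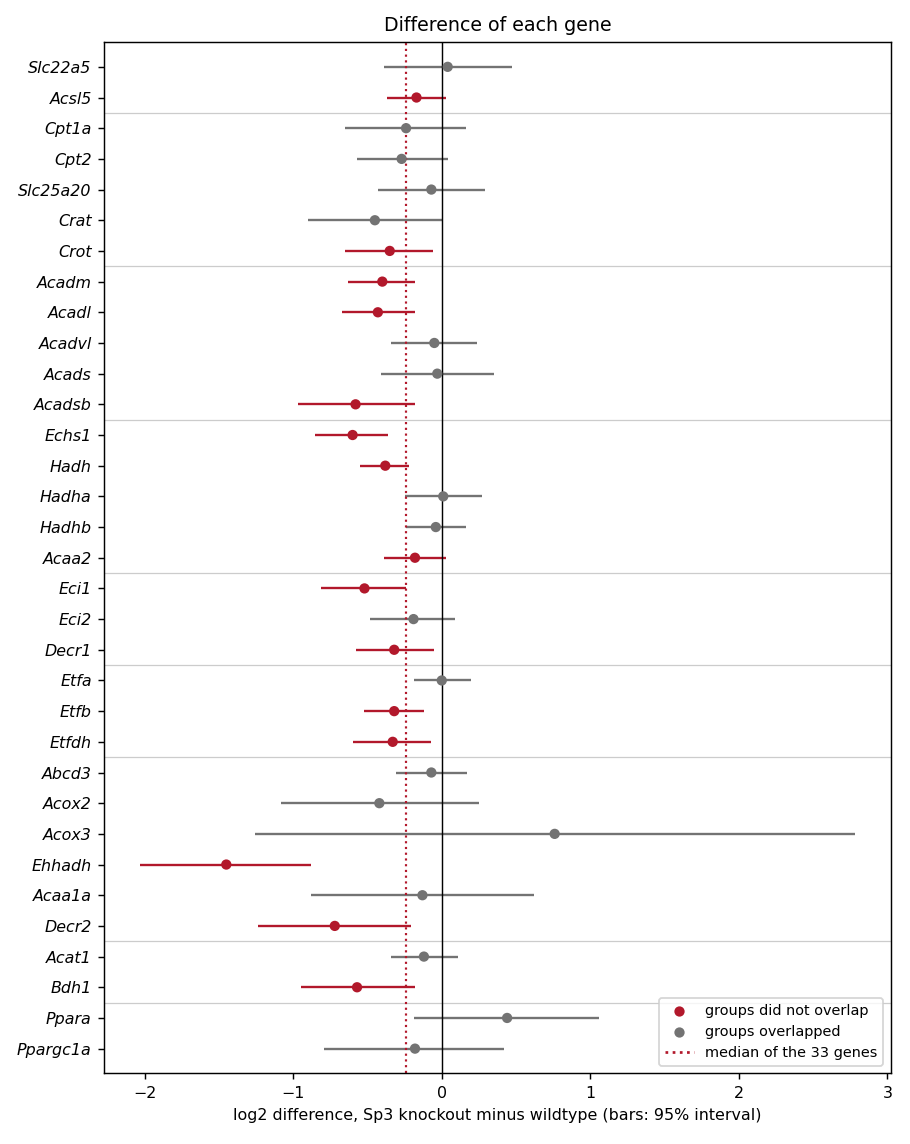
Log2 difference of each measured gene, Sp3 knockout minus wildtype (horizontal axis), with its 95% interval as a bar, from limma with an intensity trend on 3 arrays per group. Red marks the 15 genes whose groups did not overlap, grey the others, and the dotted line is the median of -0.24.

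Electron transfer from the dehydrogenases runs through a pair of flavoprotein subunits and their oxidoreductase. Etfb, the beta subunit, was at 10.08, 9.99 and 9.96 in knockout a to c, against 10.25, 10.41 and 10.32 in wildtype a to c. The groups were separate, with a difference of -0.32 ± 0.09 and a limma adjusted p of 0.520. Etfa, the alpha subunit, was at 10.16 in all 3 knockout arrays and at 10.14, 10.25 and 10.07 in wildtype, a difference of 0.00 with an interval of -0.19 to 0.20. Etfdh, the oxidoreductase that passes the electrons to ubiquinone, was at 8.40, 8.52 and 8.25 in knockout a to c, against 8.75, 8.74 and 8.68 in wildtype a to c, a difference of -0.33 ± 0.12 with an adjusted p of 0.639. Its second probe set is dim and ran the other way, at 2.98 ± 0.90 in knockout and 0.79 ± 1.45 in wildtype.

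Partners in the pathway were set against each other within each array, for 4 pairs picked after their values were seen, so these are given as a description with no test. Etfb minus Etfa was -0.08, -0.17 and -0.20 in knockout a to c, against 0.11, 0.16 and 0.25 in wildtype a to c. Hadh minus Hadha averaged 1.73 ± 0.23 in knockout and 2.13 ± 0.17 in wildtype, and Echs1 minus Hadha -0.92 ± 0.25 in knockout and -0.31 ± 0.20 in wildtype. Acadm minus Acadvl, at 0.04 ± 0.26 in knockout and 0.39 ± 0.12 in wildtype, overlapped between the groups. The Hadha pairs share 1 denominator and are not separate results.

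Ehhadh, the bifunctional enzyme of peroxisomes and a classical target of PPAR alpha in liver, had the largest difference below 0 of the 33 genes. It was at 4.28, 4.77 and 4.77 in knockout a to c, against 6.09, 6.05 and 6.04 in wildtype a to c. The wildtype arrays lay close together and all knockout arrays lay more than a full log2 unit below them. The difference was -1.45 ± 0.27, a linear ratio of 0.366, with a limma adjusted p of 0.149, and it was -1.03 with 16 intensity units added before log2. Ehhadh has 1 probe set, and its knockout mean of 4.61 lay close to 4.69, the average median of the knockout arrays over all probe sets. Decr2, the peroxisomal dienoyl-CoA reductase, was at 5.34, 5.17 and 5.73 in knockout a to c, against 6.24, 6.07 and 6.10 in wildtype a to c. These groups were separate too, with a difference of -0.72 ± 0.24 and an adjusted p of 0.602.

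The other peroxisomal members overlapped between the groups. Abcd3, a transporter of the peroxisomal membrane, differed by -0.07, with an interval of -0.31 to 0.17. Acox2, the oxidase of branched chains and bile acid intermediates, differed by -0.42, with an interval of -1.08 to 0.25. Acaa1a, a peroxisomal thiolase with a near-identical copy in mouse, Acaa1b, differed by -0.13 at an x_at probe set. Whether that probe set also reads the copy was not checked. Acaa1b, at a probe set annotated to it, averaged 3.43 ± 0.52 in knockout arrays and 3.55 ± 1.02 in wildtype arrays. Acox3, the oxidase of pristanic acid, was dim and spread widely, at 3.68, 3.03 and 3.10 in knockout a to c, against 3.38, 0.59 and 3.55 in wildtype a to c, where wildtype b lay far from the other arrays, with a difference of 0.76 and an interval of -1.26 to 2.78.

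Of the ketone body enzymes, Bdh1, which interconverts acetoacetate and beta-hydroxybutyrate, was at 9.05, 8.65 and 8.20 in knockout a to c, against 9.29, 9.22 and 9.09 in wildtype a to c. Its groups were separate by a narrow margin between knockout a and wildtype c. The difference was -0.57 ± 0.18, with a limma adjusted p of 0.584, and it was -0.35 without knockout c. Its second probe set differed by -0.26 with overlap. Acat1, which joins acetyl-CoA to acetoacetyl-CoA at the entry to ketone synthesis, was at 9.91, 9.91 and 9.74 in knockout a to c, against 10.04, 10.06 and 9.80 in wildtype a to c. The groups overlapped, and its difference of -0.12 had an interval of -0.34 to 0.11. It was -0.06 without knockout c, -0.07 without wildtype b and -0.20 without wildtype c. A second probe set of Acat1 of similar brightness differed by 0.05 and a dimmer one by -0.32. Oxct1, which uses ketone bodies outside liver, averaged 9.11 ± 0.13 in knockout arrays and 9.08 ± 0.15 in wildtype arrays.

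The regulators showed no shared direction. Ppara was at 6.93, 6.19 and 6.12 in knockout a to c, against 5.84, 6.52 and 5.58 in wildtype a to c. The groups overlapped, and its difference of 0.44 ± 0.29 was 0.18 without knockout a, 0.24 without wildtype c and 0.71 without wildtype b. Its other probe sets were at -0.54 and -0.20, so its direction depends on the probe set. Ppargc1a was at 5.04, 5.22 and 5.41 in knockout a to c, against 5.78, 5.19 and 5.27 in wildtype a to c, a difference of -0.18 ± 0.28, which was 0.00 without wildtype a, -0.09 without knockout a, -0.28 without knockout c and -0.30 without wildtype b. Of its 5 probe sets, the one farthest from 0 differed by 0.86 ± 0.50, with overlap.

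**Figure D3:**
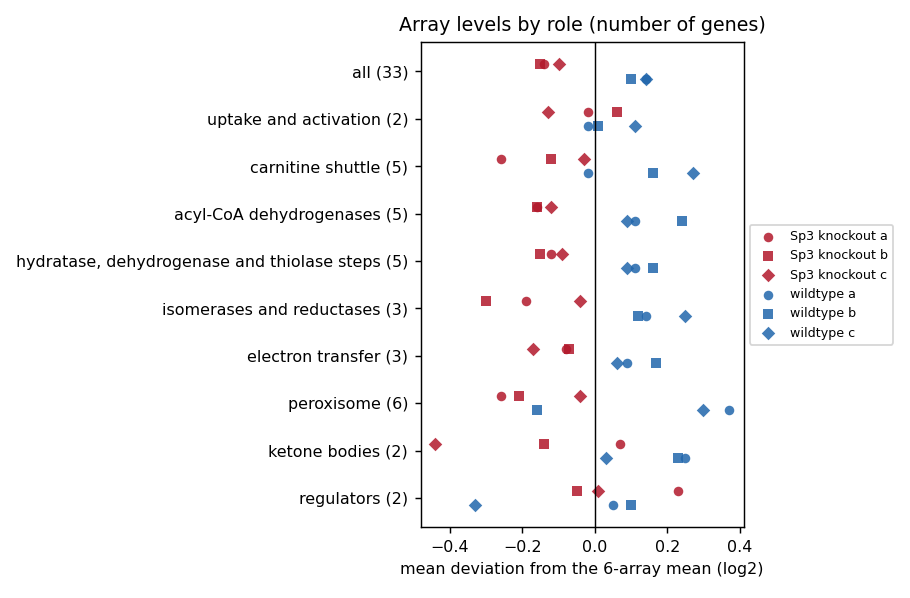
Mean deviation of the genes of each role from their own 6-array means (log2, horizontal axis), with each point 1 array, Sp3 knockout in red above wildtype in blue, and the number of genes in brackets. Over all 33 genes the knockout arrays lie between -0.15 and -0.10 and the wildtype arrays between 0.10 and 0.14, while entry, peroxisomal and ketone genes and regulators overlap between the groups.

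Grouped by role, the arrays separated for the dehydrogenases, at -0.16, -0.16 and -0.12 in knockout a to c, against 0.11, 0.24 and 0.09 in wildtype a to c. They also separated for the later steps, the auxiliary enzymes, electron transfer and, by a narrow margin, the carnitine acyltransferases with their carrier. In the peroxisomal group wildtype b, at -0.16, lay among the knockout arrays, and this is the array in which the dim Acox3 was at 0.59. In the ketone group knockout a, at 0.07, lay above wildtype c, at 0.03.

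Other genes of oxidation and of neighbouring steps, outside the 35, were also mostly below 0. Not all are fatty acid oxidation enzymes. The lists also hold peroxisomal import and catalase genes, and genes of propionate and branched amino acid breakdown, such as Mcee. Of 14 further peroxisomal genes 12 were below 0, with a median of -0.19, which was -0.11 without wildtype b. Over all genes 52.5% were below 0. At an unadjusted p under 0.05, 4 were lower, against 5.51% of all genes, and 0 were higher, against 3.2%. The 4 were Pecr, an enoyl-CoA reductase, at -0.53, Phyh, which starts phytanic acid breakdown, at -0.42, Ech1, a dienoyl-CoA isomerase, at -0.35, and Scp2, a thiolase and lipid carrier, at -0.25. Of 15 further mitochondrial genes 12 were below 0, with a median of -0.12, and 3 were lower at that p, against the same 5.51%, with 0 higher. The 3 were Mcee, the methylmalonyl-CoA epimerase, at -0.47, Etfrf1, a regulator of electron transfer flavoprotein, at -0.35, and Acot13, an acyl-CoA thioesterase, at -0.33. None passed over all probe sets, and the limma adjusted p of Pecr was 0.520.

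Lists around oxidation, apart from further ketone body genes, had medians between -0.16 and 0.06. Of 5 further ketone body genes listed, 2 were measured, with a median of 0.75, which was 0.24 without wildtype b and 1.31 without knockout a. The measured genes were Oxct1, at 0.03, and the dim Bdh2, averaging 3.18 ± 1.90 in knockout arrays and 1.72 ± 1.89 in wildtype arrays. No list used here gives a value for an HMG-CoA synthase or lyase of ketone synthesis. Fatty acid uptake and activation had 7 of 15 genes below 0 and a median of 0.06, which was -0.04 without knockout c and -0.02 without wildtype b. At an unadjusted p under 0.05, 2 were lower, against 5.51% of all genes. They were the acyl-CoA synthetases Slc27a2 at -0.41 and Slc27a5 at -1.23, and at both the groups overlapped. Slc27a5 was dim, averaging 3.77 ± 0.88 in knockout arrays and 5.0 ± 0.39 in wildtype arrays. Of 13 other regulators 8 were below 0, with a median of -0.03, which was -0.25 without wildtype b and 0.03 without wildtype c. At an unadjusted p under 0.05, 2 of them were lower, against the same 5.51%. These were Sirt3, the mitochondrial deacetylase, and Lpin2, a phosphatidate phosphatase, at -0.32. Sirt3 averaged 6.36 ± 0.11 in knockout arrays and 6.84 ± 0.17 in wildtype arrays. Of 12 targets of PPAR alpha outside oxidation 9 were below 0, with a median of -0.16, which was 0.01 without wildtype a. At an unadjusted p under 0.05 in limma, 0 were lower, against 5.51% of all genes, and 0 were higher, against 3.2%. Cyp4a14, Cyp4a12a, Fgf21 and Cidec were dim, averaging at most 2.20 in knockout arrays and 2.13 in wildtype arrays, which limits this list. Fatty acid synthesis, the opposing pathway, had 10 of 14 below 0 and a median of -0.12. At an unadjusted p under 0.05, 1 was lower, Scd1, a desaturase, at -0.40. The TCA cycle had 12 of 15 below 0 and a median of -0.11, with 1 lower at that p, Sdhb, a subunit of succinate dehydrogenase, at -0.33. Mitochondrial import and membrane genes had 13 of 14 below 0 and a median of -0.10. Here 2 were lower at that p, Phb2 at -0.24 and Tomm22 at -0.22. All genes of these last 2 lists were bright, with mean levels of 9.0 or more. Of the bright genes at large, 67.0% were below 0, with a median of -0.07, and 10.5% were lower at that p. In all these lists 0 genes passed after adjustment.

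**Figure D4:**
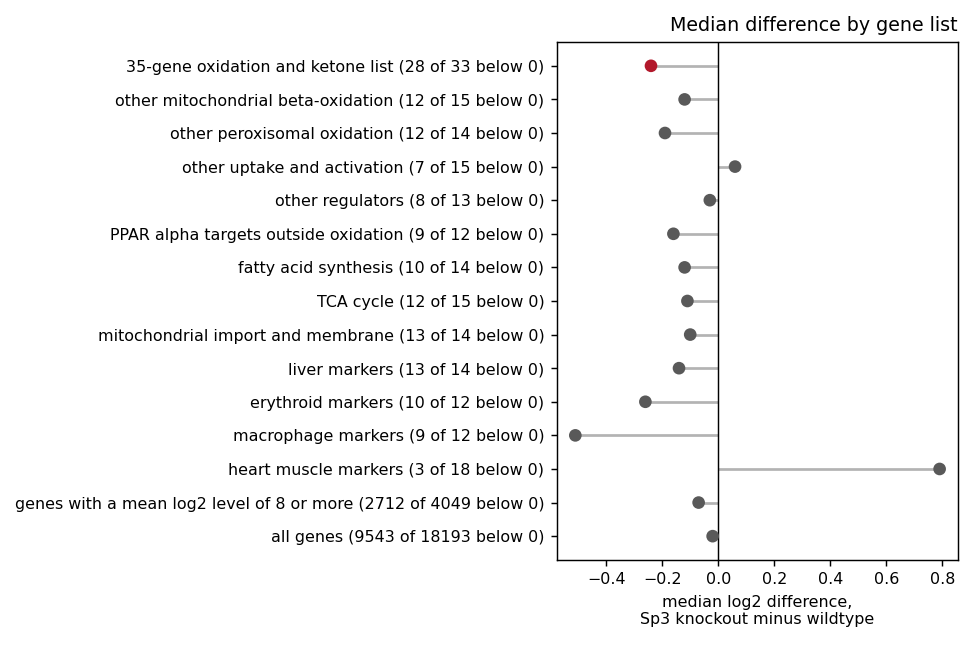
Median log2 difference, Sp3 knockout minus wildtype (horizontal axis), of each gene list except the further ketone body genes, with the number of its measured genes whose difference lay below 0. The oxidation and ketone list, in red, is at -0.24, all genes are at -0.02, macrophage markers at -0.51 and heart muscle markers, many of them dim, at 0.79.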

How the data were processed

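Expression was measured on 1-colour oligonucleotide arrays in 6 samples, 3 Sp3 knockout and 3 wildtype, grouped by their titles. The deposited values are probe set intensities on a linear scale, from 0.0562 to 12897; per the submitters' processing notes, GCOS and RMA were used, with no record here of which of them made these intensities. The median intensity per array was 22.5 to 26.7, and the arrays were not rescaled. No 2 arrays shared more than 1 equal value. The number of arrays limits the precision, and p-values measure only the spread between these samples.

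Log2 was taken and 64 control probe sets were left out. Of 45037 probe sets, 34945 had 1 annotated gene. Limma 3.58.1 in R 4.3.3 was fitted with group as the only term, with an intensity trend and robust estimation, since residual SDs, over 10 level classes, had a median of 1.27 in the dimmest class and 0.125 in the brightest; p-values were two-sided and adjusted over all probe sets. The fit was tested on simulated data with spreads that follow level. Members, lists and the choice of the trend were made with earlier results of these data known. Members with an unadjusted p under 0.05 or no overlap, and Ppara, Ppargc1a, Cpt1a, Cpt1b, Acadm, Acat1 and Bdh1, were to be given in full; from other lists at most the 4 of smallest p were named. Alb, Actc1, Tnni1, Tnnc1, Myl7, Ttn, Myh6, Oxct1, Bdh2, Acaa1b, Cyp4a14, Cyp4a12a, Fgf21, Cidec and members near 0 were named after their values were seen. The level of 8 that marks bright genes was also chosen then. Alternatives were no trend, array weights, the letter as a block, quantile normalization, median centring, 16 added units, dim probe sets left out, averaging the probe sets of a gene, 1 probe set per gene, and each array left out.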

Additional observations from a re-analysis of the deposited data

How the results depend on the processing

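Of the 15 alternatives, 14 left 0 members past the adjusted threshold. The exception was the replicate block, with the letters a to c as blocks, which called 3, Echs1, Hadh and Ehhadh at -0.60, -0.38 and -1.45, with limma adjusted p of 0.0243, 0.0341 and 0.0319. The adjusted p of Echs1 ran from 0.0243 to 0.865 over all settings. The deviations of same-lettered arrays from their group means had correlations of -0.007, 0.05 and 0.0801 over all probe sets. Dim, widely spread probe sets weigh most in these correlations, so they cannot exclude pairs. As no litter is given in the sources used here, the letters were not taken as pairs in the fit reported. The block also raised the calls over all probe sets to 258, against 14 without it.

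The count of members lower at an unadjusted p under 0.05, 14 in the fit reported, was 8 without the trend and otherwise 10 to 17, the highest with median centring, where 8.21% of all genes were lower at that p, and the lowest with the probe sets of a gene averaged, where 4.75% were. It was 11 to 13 with an array left out, and the count lower without overlap, 15 in the fit reported, was 15 to 18 with an array left out, where fewer arrays separate more easily, and 12 with quantile normalization and with the probe sets of a gene averaged. The count higher at that p was 0 to 1 and higher without overlap 0 to 2 with an array left out, the highest without wildtype b. The median difference of -0.24 was -0.29 to -0.21 with an array left out, -0.32 with median centring, which moved the median of all genes to -0.08, and -0.17 with the probe sets of a gene averaged. That last setting called 2 members higher at an unadjusted p under 0.05. It also reversed Acadl to 0.96, Etfdh to 0.93, Ppara to -0.10 and Ppargc1a to 0.09. Of the genes at an unadjusted p under 0.05, 63.3% were lower in the fit reported, 50.3% without wildtype c, 52.4% without the trend and 78.6% with median centring. Medians of the other lists with an array left out were added after seeing the data. Low signal over background limits Acox3, the knockout level of Ehhadh and the dim probe sets of Acadl, Crat, Crot and Etfdh.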
